A study of Homo sapiens with 6 samples.

Results

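Replacement histone variants are made from genes that are transcribed outside S phase as well as within it, and 8 of them were followed here: H2AZ1, H2AZ2, H3-3A, H3-3B, MACROH2A1, MACROH2A2, H2AJ and H1-10. They were picked by symbol, by a rule that names no measured value but was written with earlier results of these data known, and are 8 of the 58174 genes listed for each library. All 8 gene IDs were found, and 7 of the 8 had enough signal to be tested.

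The libraries come from LN-229, an established human glioblastoma line. Of its 6 libraries, 3 are labelled sh-JMJD1C, where the prefix usually stands for a short hairpin RNA, and JMJD1C encodes a JmjC-type histone demethylase. The other 3 are labelled control-NC, called control here, and the series asks which genes are targets of JMJD1C. RNA of both groups was extracted with TRIzol, and the design text states that it was enriched for nuclear RNA and depleted of ribosomal RNA before sequencing. The labels give no time point, dose, hairpin sequence or number of hairpins, and they leave it unsaid whether each library is a culture of its own. The p-values below therefore describe no more than the spread among these 6 libraries.

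Most histones of a chromosome are supplied in S phase by clustered replication-dependent genes, whose mRNAs end in a conserved stem-loop in place of a poly(A) tail. Replacement variants are encoded by separate genes whose mRNAs carry a poly(A) tail, and their proteins can enter chromatin without DNA replication. H2A.Z marks promoters and enhancers and is inserted by the SRCAP and p400 remodellers. H3.3 is placed in active genes by HIRA and at telomeres and pericentric repeats by DAXX and ATRX. MacroH2A carries a large macrodomain and is known mostly from silent chromatin, H2A.J accumulates in senescent cells, and H1.10 is a linker histone.

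The 3′ ends are printed because the kind of 3′ end is what the grouping of these genes is about. Each line is 30 bases of the sense strand near the end of the principal GENCODE release 29 transcript, with the poly(A) signal AATAAA or ATTAAA in capitals.
H2AZ1: gtggataagttcAATAAAggtcatatccca
H3-3A: tgtaagtttgctATTAAAatacattaaact
H3-3B: ggatgagactaaAATAAAatttttgaagtt
MACROH2A2: tgaaaggaaaaaAATAAAagatccagtgtc
H2AJ: ccggcgggagccAATAAAgttggtgaaaat
H1-10: ttttttgggcacAATAAAgcgtttaaacct

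A signal was found in the last 60 bases of the principal transcript of 6 of the 8 genes, on the transcript strand only, against 73.2% of the 19650 protein-coding genes with a principal transcript. The principal transcripts of H2AZ2 and MACROH2A1 held neither word in that window, which says only that these letters are not there. The histone stem-loop was found in no annotated transcript of the 8 genes. It was found in 29 of 65 replication-dependent genes and in 0.295% of all 19650, and the annotated principal transcripts of 32 of the 65 stop at the stop codon, where a stem-loop downstream would not be seen. A poly(A) signal was also found in 19 of the 65 replication-dependent genes, so the signal by itself does not separate the classes.

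A pair of genes outside the set shows the stem-loop, in capitals. It was searched for along whole annotated transcripts, so these stretches need not lie at the end of one. H2BC8 is a replication-dependent H2B gene, and H2AX is a variant gene known to give both a stem-loop mRNA and a polyadenylated one.
H2BC8: actcaaaGGCTCTTTTCAGAGCCactcaag
H2AX: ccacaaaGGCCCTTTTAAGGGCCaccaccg

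The deposited values are FPKM, a read count divided by gene length and library size. They were divided by a median-ratio factor per library (scaled FPKM), and whole reads were recovered from the steps between their low values. Recovered totals were 1676755, 1919675 and 1660561 reads in sh-JMJD1C 1 to 3 and 544442, 2004255 and 2960454 reads in control 1 to 3, so that control 1 was by far the shallowest. JMJD1C had 76, 16 and 40 reads in sh-JMJD1C libraries and 79, 229 and 698 in control libraries, a scaled FPKM of 0.641 ± 0.386 in sh-JMJD1C and 3.48 ± 1.09 in control (SD, n = 3 each). The fitted log2 fold change was -1.82 with an adjusted p of 0.118 in limma on FPKM, on a log scale that understates low genes. It was -2.49 with an adjusted p of 0.0253 in limma-voom on recovered reads. MALAT1 took 0.0915% to 0.292% of reads in sh-JMJD1C and 1.25% to 2.40% in control, with no overlap. The library sh-JMJD1C 1 stood apart from the other 2 of its group. Genes of 7SL RNA took 1.18% of its reads, against 15.7% and 18.5% in sh-JMJD1C 2 and 3 and 0.378% to 1.77% in control, and mitochondrial genes took 12.6% of its reads, against 1.33% and 1.70% in sh-JMJD1C 2 and 3 and 2.93% to 8.70% in control. Without sh-JMJD1C 1, limma on FPKM called 676 genes, against 34 with all 6 libraries. A single long non-coding gene took 25.0% of control 1. Of 9 glioblastoma markers, 7 were above 0, but only VIM, CD44 and EGFR were high. NES had 2 to 20 reads per library, TNC no more than 5, SOX2 no more than 1 and GFAP no more than 6. S100B and CHI3L1 were at 0 in all libraries. The summed level of the 9 markers was 895 to 2248 RPM (reads divided by the library's recovered total and scaled alike in all libraries) in sh-JMJD1C and 1802 to 3031 in control. Of 13 markers of other cells, 11 were above 0, with CD3E and PECAM1 at 0, and nearly all of their reads lay on the keratins KRT8 and KRT18. The sum over the 13 was 3395 to 5430 RPM in sh-JMJD1C and 786 to 1483 RPM in control. The part of these differences in the results below was not tested. In bulk RNA, fewer cells that express a gene and less RNA per cell cannot be told apart.

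Among the variant genes, log2 fold changes lay between -0.29 and 1.71, and none passed the test across all genes. With limma, a linear model per gene with spread shared across genes, on log2(scaled FPKM + 0.5), adjusted by Benjamini-Hochberg over 18383 genes, 0 of the 7 tested variant genes passed an adjusted p of 0.05, a threshold that 0.185% of all genes tested passed. At an unadjusted p under 0.05 the count was 2 of 7, H2AZ1 and H3-3A, against 19.9% of all genes. Limma-voom, its form for counts, run on recovered reads, also called 0 of 7, against 5.52% of 11877 genes, and so did a version without the trend of fold change over transcript length, against 3.42%. At an unadjusted p under 0.05, limma-voom had 3 of 7, against 30.8% of all genes. H2AZ1 was called (adjusted p = 0.0460) where limma was restricted to protein-coding genes, of which 8.96% were called, and H2AZ1 and H2AJ were called in limma-voom without sh-JMJD1C 1, where 20.1% of all genes were. Limma-voom with the replicate number as a block called 4 of 7, H2AZ1, H2AZ2, H3-3A and H2AJ, against 35.9% of all genes. The numbers were not taken to pair the libraries. The point estimates leaned upward, with 6 of 7 above 0 against 44.2% of all genes and a median log2 fold change of 0.91, where the median of all genes was -0.16. In scaled FPKM the groups did not overlap for H2AZ1, H3-3A and MACROH2A1, all higher in sh-JMJD1C. That is 3 of 7, against 12.2% of all genes in that direction and 26.7% in either. In FPKM as deposited the groups overlapped for H2AZ1 and H3-3A but not for MACROH2A1.

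**Figure D1:**
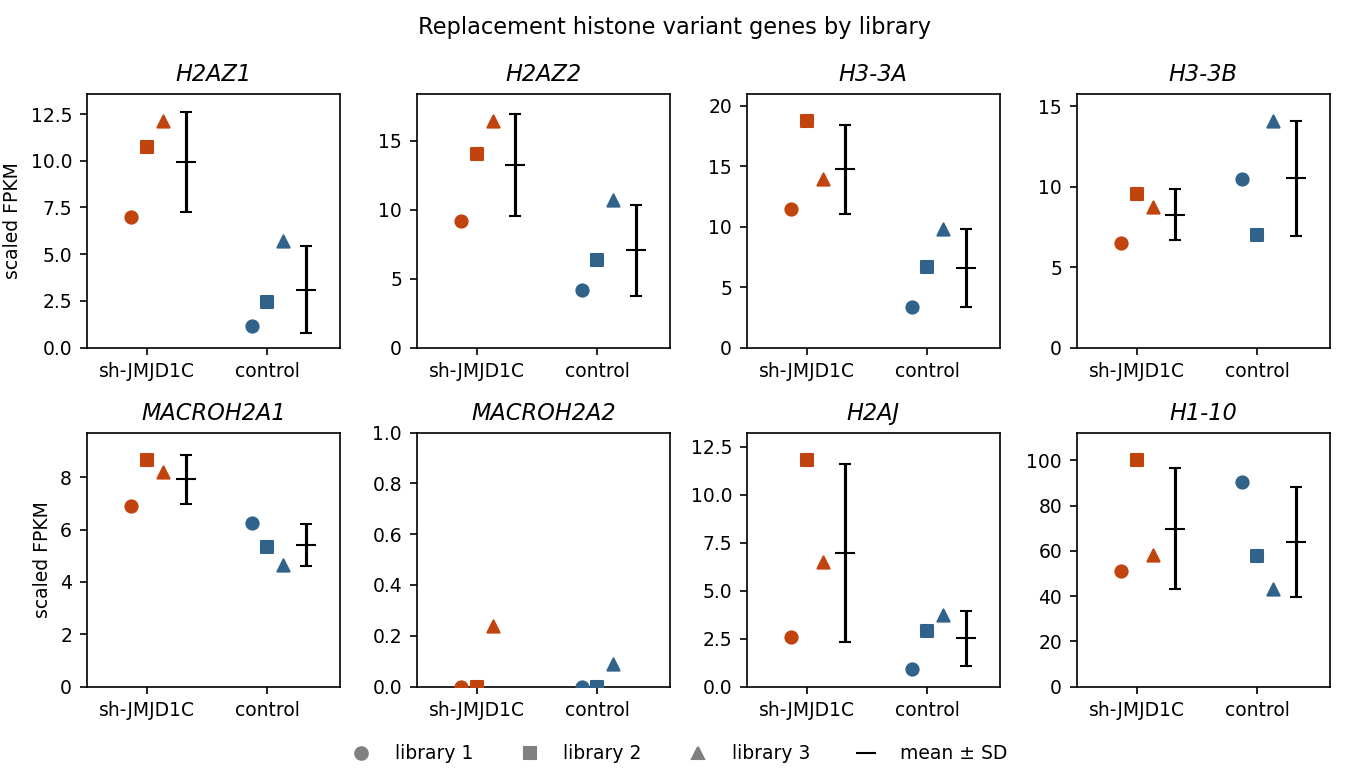
Scaled FPKM (vertical axes, linear and from 0, one scale per gene) of the 8 variant genes in 3 sh-JMJD1C libraries (left, orange) and 3 control libraries (right, blue), with the mean ± SD in black where the gene was tested. On this scale H2AZ1, H3-3A and MACROH2A1 separate the groups, H3-3B and H1-10 do not, and MACROH2A2 has 1 read in a single library of each group.

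The H2A.Z genes are a closely related pair, whose coding sequences are identical at 80.36% of 387 aligned bases and whose proteins differ by a few residues. H2AZ1 (ENSG00000164032, chromosome 4, 99948086 to 99950388, minus strand, hg38, counted from 1) had 88, 117 and 126 reads in sh-JMJD1C 1 to 3 and 4, 42 and 158 reads in control 1 to 3. In scaled FPKM these are 6.98, 10.8 and 12.1 in sh-JMJD1C and 1.18, 2.42 and 5.69 in control. Every sh-JMJD1C library was above every control library on this scale, but the control libraries lay further apart in fold than the sh-JMJD1C libraries did. In FPKM as deposited the groups overlapped, with sh-JMJD1C 1 at 7.37 and control 3 at 7.50. The means of scaled FPKM were 9.96 ± 2.67 in sh-JMJD1C and 3.10 ± 2.33 in control (SD, n = 3 each). The fold fitted by limma was 3.27 with a 95% interval of 1.37 to 7.81. The adjusted p was 0.169 in limma on FPKM and 0.0634 in limma-voom on reads. The 4 reads of control 1 are 7.35 RPM, with an exact 95% interval of 2.0 to 18.8. With both libraries numbered 1 left out, the log2 fold change was 1.45, against 1.71 with all 6.

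H2AZ2 (ENSG00000105968, chromosome 7, 44826791 to 44848083, minus strand) had 139, 183 and 205 reads in sh-JMJD1C and 17, 133 and 356 reads in control. Its scaled FPKM was 9.19, 14.0 and 16.5 in sh-JMJD1C and 4.18, 6.39 and 10.7 in control. Control 3 lay above sh-JMJD1C 1, so the groups overlapped. The log2 fold change was 0.91 with a 95% interval of -0.13 to 1.95 and an adjusted p of 0.292 in limma on FPKM.

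Within the pair, the share of H2AZ1 needs no scaling between libraries. H2AZ1 gave 38.8%, 39.0% and 38.1% of the pair's reads in sh-JMJD1C and 19.0%, 24.0% and 30.7% in control. The sh-JMJD1C point values were nearly the same, and all lay above all control values. Their exact 95% intervals, 32.4% to 45.4%, 33.4% to 44.8% and 32.8% to 43.5%, were far wider than the spread among them. The interval of control 3, 26.8% to 34.9%, overlapped all of these, and that of control 2, 17.9% to 31.0%, did not. The mean was 38.6% ± 0.486 in sh-JMJD1C and 24.6% ± 5.87 in control, 14.0 percentage points apart (SD, n = 3 each, two-sided exact permutation p = 0.10, the smallest that 3 against 3 can give, and 0.15 adjusted over 3 gene pairs). The share in control 1 rests on 21 reads, with an exact 95% interval of 5.45% to 41.9% that takes in the sh-JMJD1C values. The genes differed in annotated length as well: the longest annotated transcript is 1880 bases for H2AZ1 and 3804 bases for H2AZ2. Their principal transcripts have the opposite order, with 979 bases for H2AZ1 and 752 for H2AZ2, and no trend over that length was fitted. In limma-voom with the trend of fold change over the longest transcript removed, the log2 fold changes were 1.07 for H2AZ1 and 1.05 for H2AZ2. These differ by 0.03, against a difference of 0.72 in limma-voom with the trend kept.

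The H3.3 genes encode one and the same protein from coding sequences identical at 78.59% of 411 bases. H3-3A (ENSG00000163041, chromosome 1, 226061851 to 226072001, plus strand) had 103, 145 and 103 reads in sh-JMJD1C and 8, 82 and 193 reads in control. Its scaled FPKM was 11.5, 18.8 and 14.0 in sh-JMJD1C and 3.32, 6.65 and 9.77 in control. The groups did not overlap on this scale, with the lowest sh-JMJD1C library a little above the highest control library. In FPKM as deposited they overlapped, with sh-JMJD1C 1 at 12.1, sh-JMJD1C 3 at 12.3 and control 3 at 12.9. The means of scaled FPKM were 14.7 ± 3.70 in sh-JMJD1C and 6.58 ± 3.23 in control (SD, n = 3 each). The fitted fold was 2.28 (95% interval 1.08 to 4.81, adjusted p = 0.223 in limma on FPKM). In limma-voom the log2 fold change was 1.13, and 0.56 with the length trend removed.

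H3-3B (ENSG00000132475, chromosome 17, 75776434 to 75785893, minus strand) went the other way in its point estimate. It had 160, 202 and 176 reads in sh-JMJD1C and 69, 235 and 761 reads in control, a scaled FPKM of 6.53, 9.57 and 8.74 in sh-JMJD1C and 10.5, 6.97 and 14.1 in control. The groups overlapped, and control 3 was the highest library. The log2 fold change was -0.29 (95% interval -1.19 to 0.60, adjusted p = 0.663 in limma on FPKM).

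The balance of the H3.3 pair did not overlap between the groups. H3-3B gave 60.8%, 58.2% and 63.1% of H3.3 reads in sh-JMJD1C and 89.6%, 74.1% and 79.8% in control. All sh-JMJD1C shares were below all control shares, and the exact 95% intervals of single libraries did not overlap either, with 68.8% the highest upper bound in sh-JMJD1C and 68.9% the lowest lower bound in control. The mean was 60.7% ± 2.44 in sh-JMJD1C and 81.2% ± 7.83 in control, -20.5 percentage points (SD, n = 3 each, two-sided exact permutation p = 0.10, the smallest possible, and 0.15 adjusted over 3 gene pairs). The difference between the log2 fold changes of H3-3B and H3-3A was -1.48 in limma on FPKM, -1.37 in limma-voom and -0.96 in limma-voom with the length trend removed. H3-3B is the longer gene product, with a longest transcript of 2787 bases against 1863 for H3-3A. The intervals cover counting error only.

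**Figure D2:**
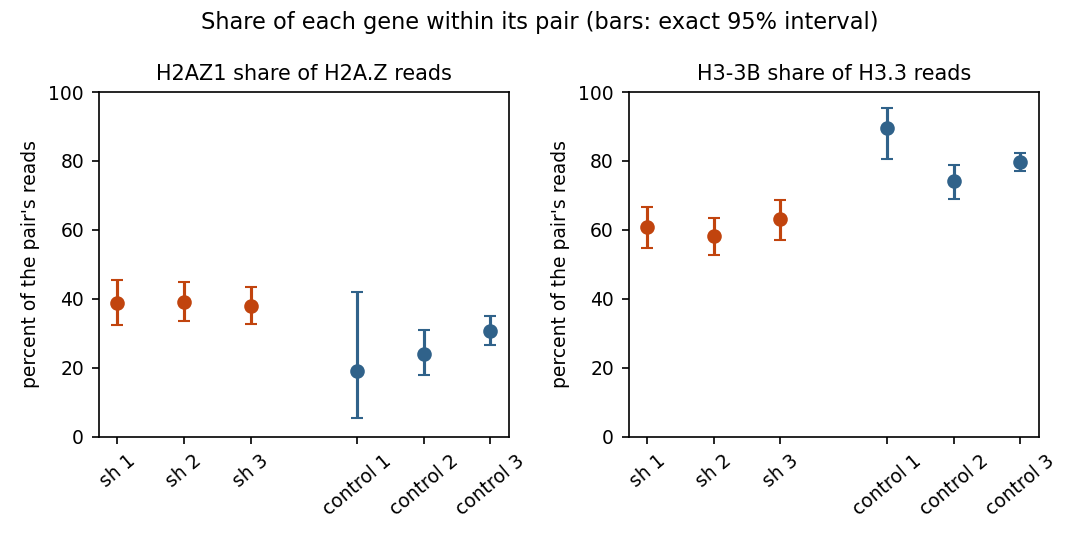
Percent of the pair's reads (vertical axis, 0 to 100) that belonged to H2AZ1 within the H2A.Z pair (left panel) and to H3-3B within the H3.3 pair (right panel) in each library, with sh-JMJD1C libraries (sh, orange) left of control libraries (blue) and bars for the exact 95% interval. H2AZ1 sits at 38.1% to 39.0% in sh-JMJD1C and below 31% in control, and H3-3B at 58.2% to 63.1% in sh-JMJD1C and at 74.1% or more in control.

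The macroH2A genes were represented by MACROH2A1 alone. MACROH2A1 (ENSG00000113648, chromosome 5, 135333900 to 135399914, minus strand) had 443, 481 and 435 reads in sh-JMJD1C and 108, 471 and 658 reads in control. Its scaled FPKM was 6.88, 8.66 and 8.21 in sh-JMJD1C and 6.24, 5.32 and 4.64 in control, with no overlap but a narrow gap. The means were 7.92 ± 0.928 in sh-JMJD1C and 5.40 ± 0.805 in control (SD, n = 3 each). Its spread within groups was the smallest of the 7 tested variant genes relative to the mean, and the fitted fold was 1.43 (95% interval 0.865 to 2.36, adjusted p = 0.372 in limma on FPKM). Limma-voom gave a log2 fold change of 0.61 with an adjusted p of 0.246, and of 1.47 with an adjusted p of 0.0570 with the length trend removed. The trend was taken over the longest annotated transcript, which is 10982 bases for MACROH2A1 where its principal transcript is 2789.

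MACROH2A2 (ENSG00000099284, chromosome 10, 70052796 to 70112280, plus strand) was close to absent. It had 0, 0 and 1 read in sh-JMJD1C and 0, 0 and 1 read in control, and was not tested. In the libraries at 0, the exact 95% interval, for counting error only, reached 2.20 and 1.92 RPM in sh-JMJD1C 1 and 2. It reached 6.78 and 1.84 RPM in control 1 and 2. The exact 95% interval of the libraries with 1 read reached 3.36 RPM in sh-JMJD1C 3 and 1.88 RPM in control 3. MACROH2A1 gave 99.9% of the pair's reads in both groups (two-sided exact permutation p = 1.0).

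H2AJ (ENSG00000246705, chromosome 12, 14774383 to 14778002, plus strand) had the fewest reads of the tested variant genes, with 21, 82 and 43 in sh-JMJD1C and 2, 32 and 66 in control. Its scaled FPKM was 2.61, 11.8 and 6.50 in sh-JMJD1C and 0.926, 2.89 and 3.73 in control, and sh-JMJD1C 1 lay within the control range. The log2 fold change of 1.24 had the widest error of the tested variant genes, with a 95% interval of -0.26 to 2.74 and an adjusted p of 0.311 in limma on FPKM.

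H1-10 (ENSG00000184897, chromosome 3, 129314771 to 129316277, minus strand) is the linker histone of the set and did not separate the groups. It had 136, 231 and 128 reads in sh-JMJD1C and 65, 212 and 254 reads in control. Its scaled FPKM was 50.9, 100.3 and 58.2 in sh-JMJD1C and 90.6, 57.7 and 43.2 in control, with the values of both groups interleaved. The log2 fold change was 0.13 (95% interval -0.96 to 1.23, adjusted p = 0.886 in limma on FPKM), and its sign changed with the scaling, to -0.17 on FPKM as deposited and -0.80 after quantile normalization.

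FPKM cannot rank these genes, because the authors divided each gene by the summed length of all its annotated transcripts, which favours a gene with 1 transcript such as H1-10 over MACROH2A1 with 20. Levels were therefore set per kilobase of the principal transcript, in RPM per kb. In sh-JMJD1C they were 134 ± 27.6 for H2AZ2, 92.8 ± 2.62 for MACROH2A1, 64.5 ± 12.1 for H2AZ1, 61.6 ± 15.9 for H1-10, 50.7 ± 6.10 for H3-3A, 42 ± 23.5 for H2AJ and 37.8 ± 2.18 for H3-3B (SD, n = 3). The ranges of neighbours in that order overlapped from H2AZ1 downward, so only H2AZ2 and MACROH2A1 stood apart from the next gene. In control the levels were 96.6 ± 59.6 for H2AZ2, 78.4 ± 6.67 for MACROH2A1, 68.8 ± 11.2 for H1-10, 61.7 ± 28.9 for H3-3B, 30.8 ± 19.3 for H3-3A, 27.8 ± 24.2 for H2AZ1 and 21.7 ± 14.7 for H2AJ (SD, n = 3). All neighbouring pairs in the control order overlapped. H2AZ1 was ranked 3 in sh-JMJD1C and 6 in control, and H3-3B 7 in sh-JMJD1C and 4 in control.

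The variant genes were set against the replication-dependent genes of the same families, to see what share of the summed reads they made up. Other variant genes of these families were left out of the sums. Read sums of the 8 variant genes were 0.0711% ± 0.00537 of the library in sh-JMJD1C and 0.0643% ± 0.0166 in control, with overlapping ranges. Those of 65 replication-dependent genes were 2.48% ± 1.03 in sh-JMJD1C and 0.277% ± 0.0680 in control (SD, n = 3 each). Library by library, the 65 genes held 1.36%, 3.37% and 2.73% of reads in sh-JMJD1C and 0.219%, 0.352% and 0.260% in control, with no overlap.

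H3-3A and H3-3B together made up 14.0%, 3.24% and 5.42% of their reads plus those of 11 H3C genes in sh-JMJD1C, and 58.8%, 44.6% and 62.9% in control. The 5 H2A variant genes made up 11.5%, 5.88% and 8.46% of their reads plus those of 15 H2AC genes in sh-JMJD1C, and 40.4%, 33.6% and 47.1% in control. H1-10 made up 2.81%, 1.52% and 0.999% of its reads plus those of 6 replication-dependent H1 genes in sh-JMJD1C, and 13.7%, 10.3% and 12% in control. The groups did not overlap in any of the 3 families. These shares are descriptions, were given no test, and are shares of reads, so that a longer transcript counts for more.

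**Figure D3:**
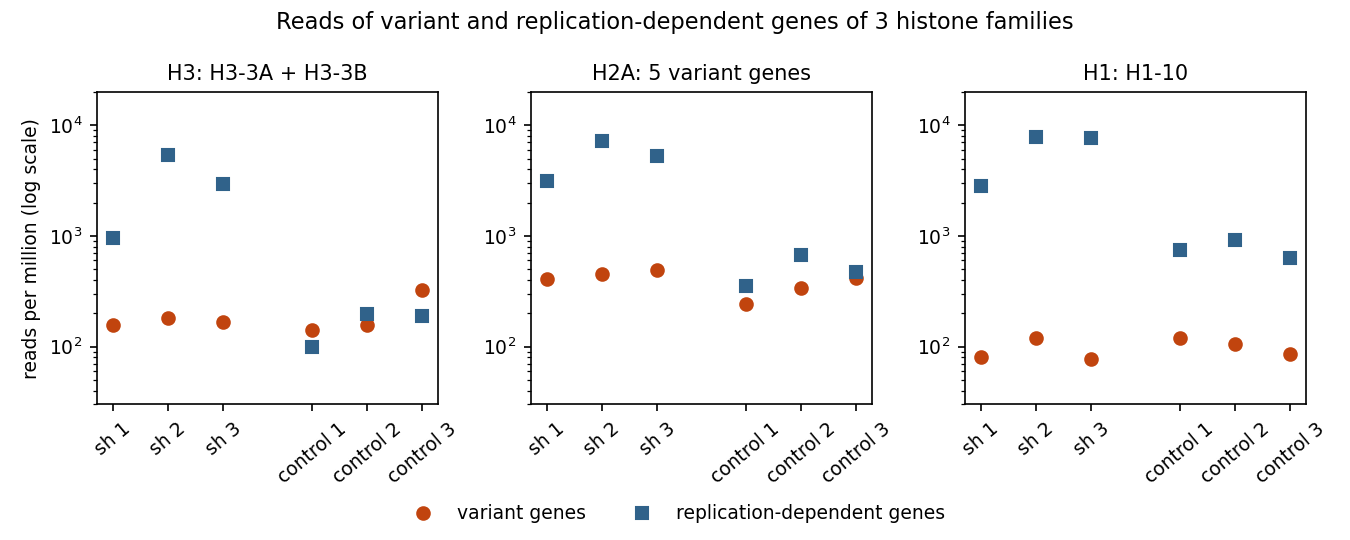
RPM (vertical axis, log scale) of the variant genes (orange circles) and of the replication-dependent genes (blue squares) of the H3, H2A and H1 families, with sh-JMJD1C libraries (sh) left of control libraries. The circles of the groups overlap in all 3 families, while the squares are higher in all 3 sh-JMJD1C libraries than in all 3 control libraries.

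The replication-dependent genes had larger fold changes in the same fits. Of 65 such genes 54 were tested in limma on FPKM, 6 were higher at an adjusted p of 0.05 and 0 lower, and the median log2 fold change was 3.45, against 0.91 for the 7 variant genes. All 54 had a log2 fold change above 0. In limma-voom 44 of 50 were higher, and 40 of 50 with the length trend removed. The 6 calls of limma on FPKM became 46 without sh-JMJD1C 1 and 0 on leaving out any of the other 5 libraries, and limma-voom called 22 to 49 of the genes with single libraries left out. H2BC3 had the largest log2 fold change of the 6, 5.51 with an adjusted p of 0.0450, and H2BC8, whose stem-loop is printed above, had the smallest, 3.00 with an adjusted p of 0.0468. H2AC11, H2BC10, H2BC11 and H2BC14 lay between them.

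**Figure D4:**
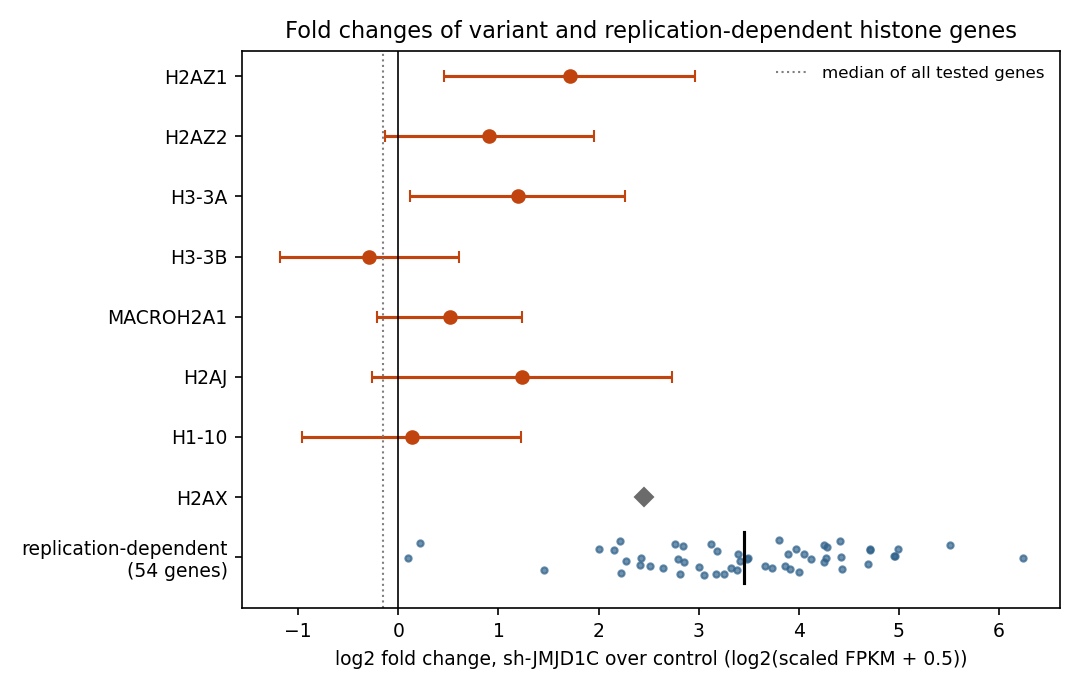
Log2 fold change of sh-JMJD1C over control (horizontal axis, limma on log2(scaled FPKM + 0.5)) with 95% intervals for 7 variant genes (orange), as a point for H2AX (grey diamond), and for 54 replication-dependent histone genes (blue points, bar at their median of 3.45). The 7 variant genes lie between -0.29 and 1.71, and the dotted line is the median of all tested genes, -0.16.

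Of the other replication-independent variants, 4 were tested in limma on FPKM and 0 passed. H2AX, which marks DNA breaks when phosphorylated, had a scaled FPKM of 37.2, 86.7 and 51.0 in sh-JMJD1C and 10.5, 11.8 and 7.12 in control. Every sh-JMJD1C library was well above every control library, with a log2 fold change of 2.45 (adjusted p = 0.0841 in limma on FPKM) and 2.61 (adjusted p = 0.0162 in limma-voom). H2AX thus rose in limma-voom, also with the length trend removed (1.93, adjusted p = 0.0277), and remained called without sh-JMJD1C 1, sh-JMJD1C 3 or control 2 but was lost when any of the other 3 libraries was left out (adjusted p up to 0.0855). It is the variant gene with the stem-loop printed above.

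The genes that place H3.3 and H2A.Z in chromatin were read from 3 lists. Of all 11877 genes in limma-voom, 656 (5.52%) were called, 441 higher and 215 lower, so a call or 2 in lists this short is close to that share. Of 9 H3.3 deposition genes 0 passed in limma on FPKM, with a median log2 fold change of -0.25, and limma-voom called 1 lower. That gene was ATRX, the remodeller that acts with DAXX, with a scaled FPKM of 0.521, 0.336 and 0.986 in sh-JMJD1C and 3.59, 1.16 and 4.65 in control (limma-voom log2 fold change of -2.18 with an adjusted p of 0.0469). The call was lost with the length trend removed (-1.33, adjusted p = 0.134) and when any single library other than control 2 was left out (adjusted p up to 0.20). DEK, a histone-binding protein, had the largest absolute fold change of the list in limma on FPKM, -2.04, with an adjusted p of 0.224, and its groups overlapped.

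Of 13 tested genes of H2A.Z exchange and removal 0 passed in limma on FPKM, with a median of 0.18, and limma-voom called 2 of 15 higher. RUVBL2, an ATPase shared by SRCAP, p400 and INO80 complexes, had a scaled FPKM of 10.5, 28.1 and 16.1 in sh-JMJD1C and 3.01, 5.00 and 2.20 in control. Its groups did not overlap, and the log2 fold change was 2.44 with an adjusted p of 0.0226 in limma-voom. The other was ZNHIT1, a SRCAP subunit, at 1.49 with an adjusted p of 0.0494, named here after its value was seen. Both calls were lost in limma-voom when any single library other than sh-JMJD1C 1 or control 2 was left out, with adjusted p up to 0.111 for RUVBL2 and 0.203 for ZNHIT1. VPS72, the subunit that binds the H2A.Z dimer, had a log2 fold change of 1.70 and an adjusted p of 0.189 in limma on FPKM.

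Of 7 readers and linked regulators 0 passed in limma on FPKM, with a median of -0.74, and limma-voom called 1 lower. ZMYND11, which reads H3.3 trimethylated in gene bodies, had a scaled FPKM of 0.497, 0.258 and 0.413 in sh-JMJD1C and 2.09, 1.03 and 1.36 in control. Its log2 fold change was -1.77 with an adjusted p of 0.0442 in limma-voom. With the length trend removed the adjusted p was 0.0588, and the call remained only without sh-JMJD1C 1 or control 2 among the single libraries left out (adjusted p up to 0.193). HELLS, a remodeller linked to macroH2A placement, had a log2 fold change of -1.16 and an adjusted p of 0.293 in limma on FPKM.

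The genes whose pattern was most like that of each variant gene were taken by Pearson's r of log2(scaled FPKM + 0.5) over the 6 libraries, among the 2931 protein-coding genes that averaged 5 FPKM or more. Over 6 points that share the group difference and the depth of each library, high values of r are common, and they are given as a description. LAPTM4B was among the 2 genes nearest to both H2AZ1 (r = 0.987, after FGFBP1 at 0.988) and H2AZ2 (r = 0.998, before ID1 at 0.989). FEN1 and SNAPIN were nearest to H3-3A at 0.988 each, PDAP1 (0.995) and H1-4 (0.988) to MACROH2A1, and ACTR1B (0.993) and HBE1 (0.991) to H2AJ. H1-10 had DCPS at 0.976 and RNF113A at 0.966. H3-3B stood apart from the others, with no gene over 0.95 and MRPS35 at 0.927 and TNFSF9 at 0.926 as its nearest.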

How the data were processed

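The authors deposited FPKM per gene and library. Per the file headers, columns hold FPKM at rising shares of the reads, and the full library was used. Bowtie 0.12.2 and hg38 are named, with no role, in the submitters' processing notes. Which counter, annotation and strand setting they used is not given in the sources used here. Low FPKM are whole multiples of 1 read, so reads were recovered from FPKM, gene length and library total (100.0% of low values whole within 0.05 of a read). For 93.88% of the 29280 genes above 0 the length was the sum of all annotated GENCODE release 29 transcripts, as for all 8 variant genes. For the other 1792 the smallest length that made all values whole was taken, so the 100.0% was set by the method.

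FPKM were divided by median-ratio factors, and genes with a mean of at least 0.5 were fitted with limma 3.58.1 (R 4.3.3) with trend on log2(scaled FPKM + 0.5), a scale that understates low genes. Reads of genes with at least 60 were fitted with limma-voom. A lowess trend of span 0.3 over the longest transcript was removed in one version. On data simulated from these libraries, limma on FPKM called 18 of the 199 changed genes that it fitted, and 9 unchanged genes. Limma-voom called 172 of the 200 changed genes that it fitted, and 5 unchanged genes. These counts are not split by size of change. How often a gene with a fold change like those of the variant genes would be called was not tested. Intervals of reads and shares are exact binomial at 95%. All variant genes were named, with JMJD1C, up to 6 called genes per list or else the 2 with the largest fold change, and the 2 genes most like each variant. The variant genes and lists were chosen with earlier results of these data known. Genome coordinates and sequences come from GENCODE release 29. A gene of the lists is not reported here.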

Additional observations from a re-analysis of the deposited data

How the results depend on the processing

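Of 26 alternatives, 23 called 0 of 7 variant genes. H2AZ1 was called among protein-coding genes only (1 gene, 8.96% of genes called), H2AZ1 and H2AJ in limma-voom without sh-JMJD1C 1 (2 genes, 20.1%), and H2AZ1, H2AZ2, H3-3A and H2AJ in limma-voom with a replicate block (4 genes, 35.9%). With each library left out in turn, 0 variant genes were called on FPKM and 0 to 2 on reads. The cause of these changes was not tested. All genes called numbered 34 as reported, 0 at pseudocount 1, 84 at pseudocount 0.1, 0 with no filter, 79 on FPKM as deposited, 2 after quantile normalization, 114 with array weights, 911 among protein-coding genes only, 656 on reads, 405 on reads with the length trend removed, 0 without both libraries numbered 1, and 948 on reads without them. Leaving out single libraries gave 0 to 676 on FPKM, the highest without sh-JMJD1C 1, and 31 to 2305 on reads (99 without sh-JMJD1C 3, 1187 without control 2, 2305 without sh-JMJD1C 1). Genes of the 5 pathway lists called numbered 6 as reported, 0 at pseudocount 1, with no filter, after quantile normalization and without both libraries numbered 1 (53 on reads), 10 at pseudocount 0.1, 29 with array weights, 55 among protein-coding genes, 50 on reads and 44 with the length trend removed. They ranged from 0 to 48 on FPKM and 22 to 57 on reads with single libraries left out (25 without sh-JMJD1C 2, 38 without sh-JMJD1C 3, 32 without control 1, 52 without control 2, 22 without control 3). The replicate block called 0 genes and 0 list genes on FPKM, and 4260 genes and 65 list genes on reads. Replicate numbers are shared by both groups, and the deviations of same-numbered libraries correlated at 0.00891, 0.14 and 0.22. For sh-JMJD1C 2 and 3 the same-numbered control was the best match, but sh-JMJD1C 1 correlated best with control 2, at 0.125. A correlation of 0.1 was needed of every pair, so the numbers were not taken to pair the libraries. The block cannot change the differences in pair shares, because the mean of same-numbered differences equals the difference of group means, and its smallest possible p is 0.25. H1-10 turned negative on FPKM as deposited (-0.17), after quantile normalization (-0.80) and with the length trend removed (-0.47), and ranged from -0.16 to 0.38 on FPKM and -0.15 to 0.52 on reads (-0.0265 without sh-JMJD1C 2) with single libraries left out. The MACROH2A1 share differed by 0.0506 percentage points without sh-JMJD1C 3, the reverse of -0.0259, and by -0.0765 to 0.0506 with single libraries left out. No other named variant gene changed direction, with log2 fold changes of 1.07 to 2.15 for H2AZ1, 0.57 to 1.19 for H2AZ2, 0.56 to 1.47 for H3-3A, -0.59 to -0.04 for H3-3B, 0.23 to 1.47 for MACROH2A1 and 0.52 to 1.78 for H2AJ. Settings on FPKM that changed only the filter, the genes fitted or the block give the main log2 fold change by construction, so they say nothing on direction. Over 9 alternatives the share of H2AZ1 differed by 11.2 to 17.1 percentage points and that of H3-3B by -25.9 to -16.2. Depth limits the lowest values, above all those of control 1.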

Other observations

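Reads of the variant genes may be shared with near copies and neighbours, since the handling of multiply mapped reads and of strand is not given in the sources used here. Of the 50-base windows of the principal transcript, 28.75% in H3-3A also occur in another gene's transcripts, most often in the pseudogene H3F3AP4. The figure was 14.79% in H2AZ2, all in its pseudogene copy, 7.85% in H2AZ1, and 8.28% in H3-3B, all in H3-5, an H3.3-like gene derived from it. It was 23.25% in MACROH2A1 and 17.22% in H1-10, in overlapping genes, and 0 in H2AJ and MACROH2A2. Reads assigned to the pseudogene copies named after these genes were few. Windows of H3-3A occur in 12 other genes, and reads of any not named as its copies were not summed. The 6 copies of H2AZ1 held 12 reads in sh-JMJD1C and 26 in control, where H2AZ1 itself had 331 in sh-JMJD1C and 204 in control. The single copy of H2AZ2 held 44 in sh-JMJD1C and 26 in control, the 6 of H3-3A held 26 in sh-JMJD1C and 29 in control, and the 2 of H3-3B held 6 in sh-JMJD1C and 8 in control. The highest scaled FPKM of any of these copies in a library was 20.7, for H3F3AP6.

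Genes on the opposite strand also had reads. H2AZ1-DT, a divergent transcript of H2AZ1, had 23, 15 and 21 reads in sh-JMJD1C and 0, 5 and 20 in control. H1-10-AS1 had 222 reads in sh-JMJD1C and 200 in control, PITX1-AS1, which overlaps MACROH2A1, had 225 in sh-JMJD1C and 355 in control, and UNK, which overlaps H3-3B, had 139 in sh-JMJD1C and 170 in control. Without the strand setting, reads of a gene and of its antisense partner cannot be told apart.

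The deposited columns for smaller shares of the reads give a view of stability within a library. From the column at 0.5 of the reads upward, H2AZ1 ranged from 9.15 to 11.2 FPKM in sh-JMJD1C 3 and from 7.19 to 7.65 FPKM in control 3, but from 0 to 1.47 FPKM in control 1. H3-3B ranged from 18.2 to 18.9 FPKM in control 3 and from 6.84 to 7.35 FPKM in sh-JMJD1C 1.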
